A study of Homo sapiens with 42 samples.

Results

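Albumin (ALB), alpha-fetoprotein (AFP) and transthyretin (TTR) were followed in Hep3B cells, a human hepatoma line, over a time-course in a cytokine-enriched medium. The members were all probes whose array annotation names only ALB, AFP or TTR: 6 probes of ALB (numbered 393, 819, 2061, 7627, 7988 and 11939), 3 of AFP (1703, 6311 and 9186) and 6 of TTR (704, 2628, 2941, 7341, 7620 and 11995). These are 15 of the 13824 probes of the array, and 3 of the 5631 genes that a probe names alone. Total RNA was hybridised to 42 arrays, 1 per culture. Cultures received either CM, the medium enriched in pro-inflammatory cytokines, or NCM, the control medium, and were taken at T0, 15 min, 30 min, 1 h, 3 h, 6 h or 16 h, which gives 14 groups of 3 arrays. Per the labels, each CM culture was paired with an NCM culture from the same batch of trypsinized cells, and the work was done as 3 independent experiments, so that each time has 3 pairs. All groups are the same tumour line, with no further genotype or treatment named, and the composition of CM is not given in the sources used here. The question of the comparison is how the mRNA of these liver proteins behaves when hepatoma cells meet inflammatory cytokines.

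Albumin, the most abundant protein of plasma, holds its oncotic pressure and carries fatty acids, bilirubin, hormones and drugs. Alpha-fetoprotein is its fetal counterpart, made by the yolk sac and fetal liver, nearly silent in adult hepatocytes and made again in many hepatomas. Transthyretin forms a tetramer that carries thyroxine and, through retinol-binding protein, retinol. Albumin and transthyretin are textbook negative acute phase proteins: during inflammation interleukin-6 and interleukin-1 lower their synthesis in the liver while those of C-reactive protein and fibrinogen go up. In hepatocytes the genes are driven by factors of the HNF1, HNF4, FOXA and C/EBP families.

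The promoters of ALB and AFP are shown because these genes are neighbours that stem from 1 ancestral gene and are driven in liver cells through HNF1 sites. Of the 3 members, 2 had an entry in the RefSeq promoter table (build GRCh38.p14), and the 250 bases before each start site are printed 5′ to 3′, at chr4:73404037-73404286 on the + strand for ALB and chr4:73435971-73436220 on the + strand for AFP. Capitals mark the letters GTTAAT, a core of the HNF1 site.
ALB: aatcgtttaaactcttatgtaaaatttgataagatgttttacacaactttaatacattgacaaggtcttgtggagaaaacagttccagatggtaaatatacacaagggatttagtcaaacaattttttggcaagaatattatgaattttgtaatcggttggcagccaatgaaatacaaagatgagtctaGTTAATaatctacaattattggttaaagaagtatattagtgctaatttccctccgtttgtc
AFP: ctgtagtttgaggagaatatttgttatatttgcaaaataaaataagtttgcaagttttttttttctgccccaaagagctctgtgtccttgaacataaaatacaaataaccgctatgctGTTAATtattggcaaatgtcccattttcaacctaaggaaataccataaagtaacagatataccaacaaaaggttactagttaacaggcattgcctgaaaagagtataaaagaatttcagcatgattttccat
In ALB the match lies at -61 to -56 from the start, and in AFP at -132 to -127. Searched on both strands of the whole 300-base windows of the table, which run on 50 bases past the start, GTTAAT was found in 6.88% of 35116 promoters. The letters TTGCNNAA, a core of C/EBP sites, occurred once in each of the ALB and AFP windows and in 10.5% of all promoters. CCAAT, the box of that name, occurred 2 times in each window and in 34.6% of all promoters. TATAAA occurred once in AFP, at -29 to -24, was not found in the ALB window, and stood in 11.5% of all promoters. TTCNNNGAA, the core of a STAT site, and an NF-kappaB site, as GGG and CC with 5 bases between them, were found in neither window, against 7.66% and 58.7% of all promoters. No 2 of the matches in ALB or AFP overlapped. These matches describe the letters only.

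The deposited values are linear intensities with a mean near 1 on every array (0.999 to 1.00) and a median between 0.354 and 0.807. They were quantile normalized and put on the log2 scale, and every level and change given here is on that scale, where a change of 1 is a 2-fold change. None of the 630 values of the 15 probes was negative or at the floor of the scale. The labelled cell type was checked against marker genes fixed as lists: 9 of 13 measured hepatocyte plasma protein genes and 4 of 5 fetal liver and hepatoma genes had their brightest probe among the brightest 25% of the array's probes, against 0 of 2 genes of T and B cells, 0 of 2 of bile duct cells, 1 of 5 of macrophages (C1QA), 1 of 5 of endothelial cells (ENG), 1 of 5 of stellate cells and fibroblasts (DCN) and 1 of 6 of erythroid cells (HBG2). Of the 15 probes of interest, 7 lay in that bright share: all 6 of ALB and 1 of AFP, and none of TTR.

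All 15 probes gave a signal above the floor on every array of both media. For each of the 15 probes the 14 groups were put in order of their mean. From the lowest to the highest of the 14 means the span was 0.41 (AFP 1703) to 1.27 (TTR 704), which is 1.28 (TTR 7620) to 2.60 (TTR 704) times the probe's median SD within a group. Neighbours in such an order lie close by construction: of the 195 steps between them, 11 were wider than the smaller of the neighbours' SDs, and the other neighbours do not differ beyond their spread.

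The brightest ALB probe, 2061, was the steadiest of the gene. On the 42 arrays it lay between 1.01 and 2.14 with a median of 1.69. Its highest group was CM at 3 h, 1.92 ± 0.25 (SD, n = 3), and its lowest was CM at 30 min, 1.49 ± 0.43 (SD, n = 3), where the single array at 1.01 sits. The other ALB probes varied more. ALB probe 7627 ran from -0.80 to 2.36 with a median of 1.25, from 1.66 ± 0.89 (SD, n = 3) in NCM at 6 h down to 0.61 ± 1.34 (SD, n = 3) in NCM at 15 min. ALB probe 7988 ran from -0.48 to 2.55, ALB 393 from 0.39 to 2.67, ALB 11939 from -1.19 to 1.74 and ALB 819 from 0.66 to 2.22. A probe's brightness depends on its own sequence and spot, so it served only to pick a probe and to check the cell type, and is not read as an amount of mRNA.

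**Figure D1:**
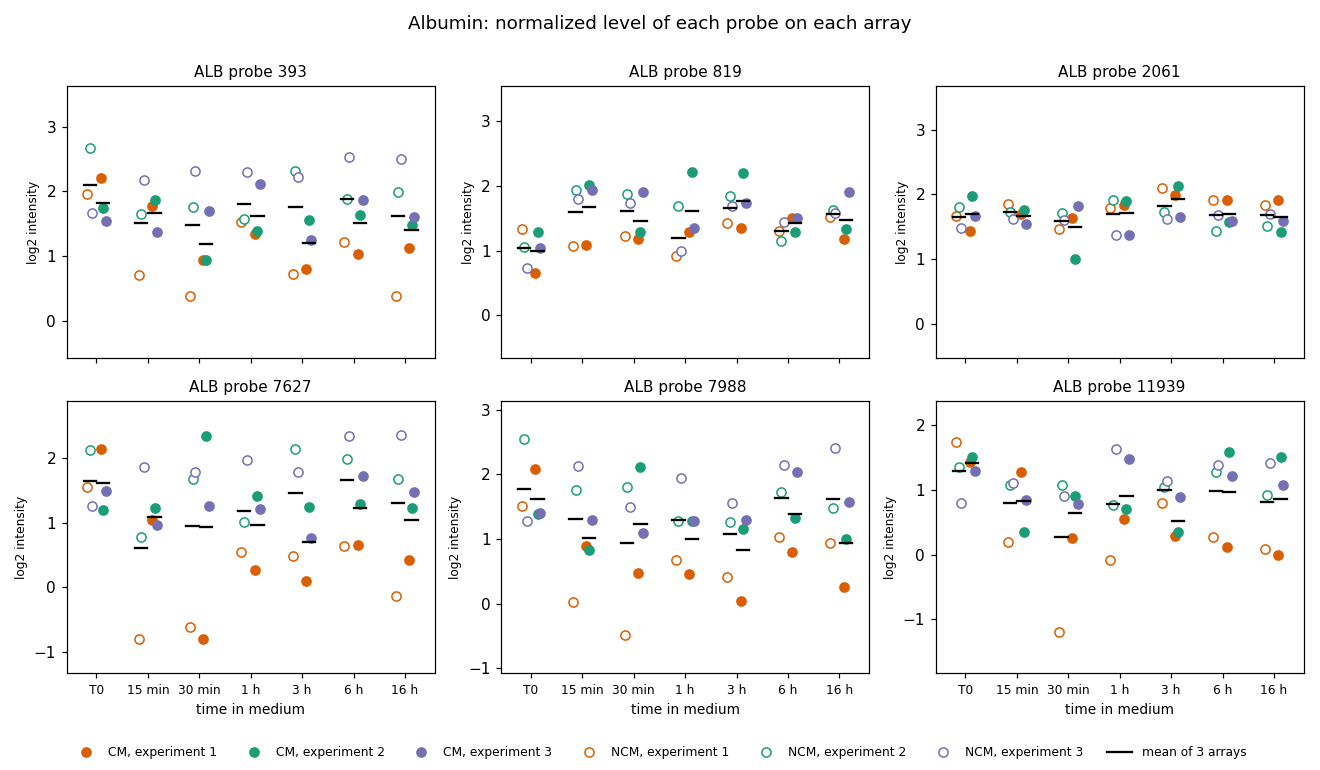
Normalized log2 intensity of the 6 ALB probes (y) at each time in medium (x), with 1 point per array, filled for CM and open for NCM, coloured by experiment, and a bar for the mean of 3 arrays. Every panel spans the same range of log2 units; probe 2061 stays between 1.01 and 2.14, while in the panels of 393, 7627, 7988 and 11939 the points of experiment 1 lie low at most times after T0.

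The brightest AFP probe, 1703, was also narrow. It lay between 1.78 and 2.89, with a median of 2.26. The highest group was NCM at 16 h, 2.52 ± 0.33 (SD, n = 3), and the lowest CM at 6 h, 2.11 ± 0.33 (SD, n = 3). AFP probe 6311 ran from -1.64 to 0.38. AFP probe 9186 ran from -3.34 to -0.36, and its lowest value is a single NCM array at T0.

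TTR probe 11995, the brightest of the 6, ran from -1.15 to 1.25 with a median of -0.42. Its highest group was NCM at 1 h, 0.28 ± 0.85 (SD, n = 3), and its lowest CM at 16 h, -0.76 ± 0.38 (SD, n = 3). The other 5 spanned values from -2.70 for probe 2628 at the lowest to 0.39 for probe 704 at the highest.

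**Figure D2:**
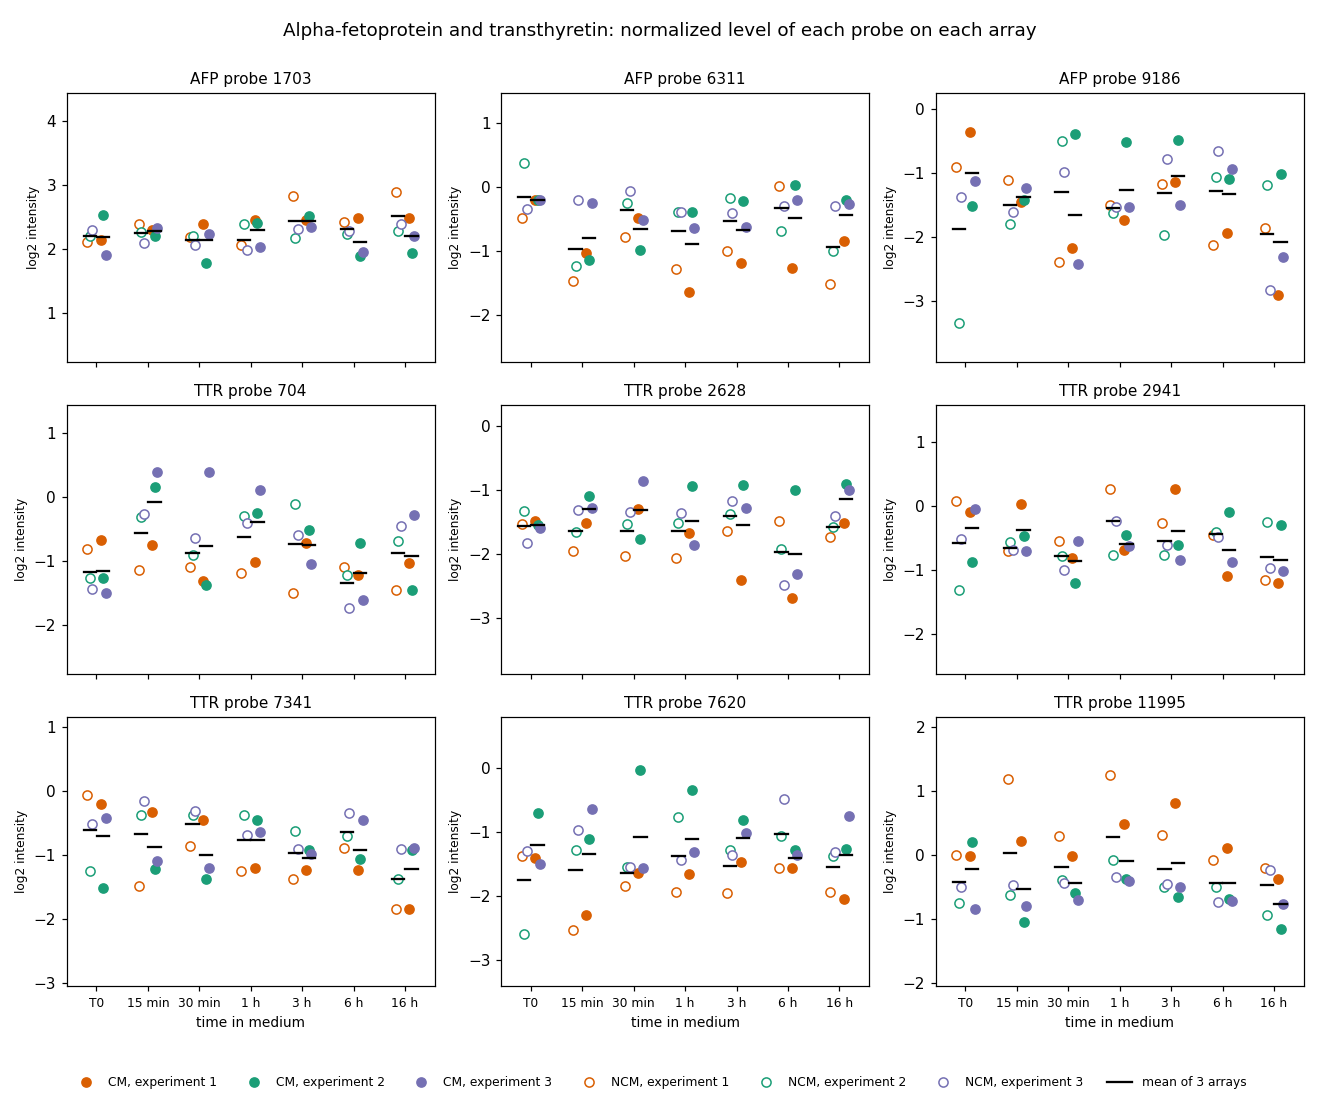
Normalized log2 intensity of the 3 AFP and 6 TTR probes (y) at each time in medium (x), drawn with 1 point per array, filled for CM and open for NCM, coloured by experiment, and a bar for the mean of 3 arrays. AFP 1703 stays between 1.78 and 2.89, 1 open point of AFP 9186 stands at -3.34 at T0, and the points of experiment 1 are the highest of TTR 11995 at most times.

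Against T0 in the same medium, no member probe passed the test at any later time. An F test over the 7 times (limma, Benjamini-Hochberg over all probes) called 0 of 15 in CM and 0 of 15 in NCM. Among all probes it called 0.00723% in CM and 0.0145% in NCM. None of these 30 member tests had an unadjusted p under 0.05, against 1.18% of all probes in CM and 1.67% in NCM. By values alone, 8 of the 15 were lower in CM at all 6 later times than at T0 (ALB 393, 7627, 7988 and 11939, AFP 6311 and 9186, and TTR 2941 and 7341), and ALB 819 was higher at all 6. The largest differences from T0 in CM were -1.08 for AFP 9186 at 16 h and 1.08 for TTR 704 at 15 min (unadjusted p of 0.054 and 0.028, adjusted p of 1.00 and 0.999 in limma). Of the ALB probes, 7627 was at -0.91, 11939 at -0.89 and 819 at 0.76, all at 3 h. In NCM, ALB 393, 7988 and 11939 and AFP 6311 were lower at 6 of 6 times, and ALB 819 and TTR 7620 higher at 6 of 6. All of these differences share the 3 T0 arrays of their medium, so a high or low T0 group shifts all 6 at once. The share of all probes with 6 of 6 times on 1 side of T0 is not given here. Nor is the share that passed at single times against T0. The counts of 6 of 6 are therefore a description and are not read as a decline or rise of the members.

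CM against NCM was then compared within the pairs. No probe of ALB, AFP or TTR was called as changed at any of the 7 times. Of the 105 tests 0 passed an adjusted p of 0.05 (limma, Benjamini-Hochberg over all 13824 probes of a time), and the smallest adjusted p was 0.942. Of all probes, 0% passed at T0, 15 min, 30 min, 1 h, 3 h and 6 h, and 0.00723%, a single probe of complement factor B (CFB), at 16 h, a background so low that the members' 0 sets them apart from nothing. The changes of the members ran from -0.76 to 0.88 with standard errors of 0.18 to 0.40. At an unadjusted p under 0.05 there were 3 of the 105, at a share of 3.26% to 5.06% of all probes at each time. In total RNA of a culture, fewer cells that make an mRNA and less of it per cell cannot be told apart.

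How much change these pairs leave room for can be read from the intervals. For 81 of the 105 tests the 95% confidence interval of the change lay wholly within a 2-fold change either way, 31 of 42 for ALB, 16 of 21 for AFP and 34 of 42 for TTR. The widest reached -1.58 for ALB 7627 at 3 h and 1.71 for AFP 9186 at T0. All 3 pairs were higher in CM in 14 tests and all 3 lower in 17, together 29.5% of the 105, and of the tests of all probes 23.7% had 3 pairs of 1 sign. At no time did the 3 CM arrays of a member lie wholly above or below its 3 NCM arrays, which 2.65% (T0) to 5.24% (16 h) of all probes did.

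**Figure D3:**
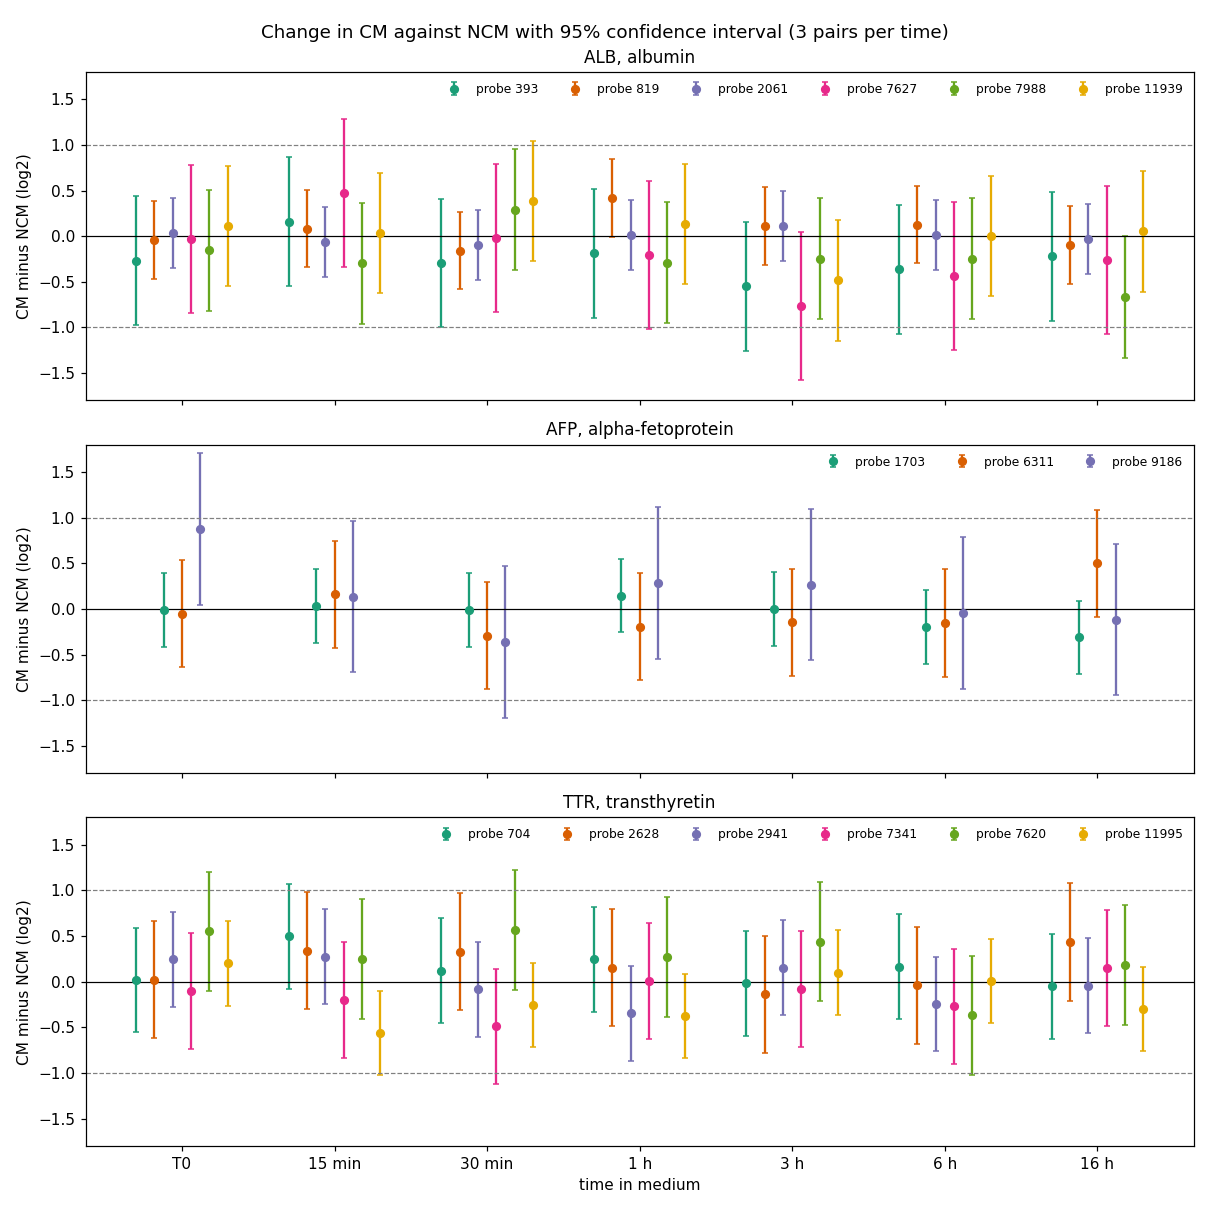
Change in CM against NCM on the log2 scale (y) of each probe of ALB, AFP and TTR at each time in medium (x), as the mean of 3 pairs with its 95% confidence interval; dashed lines mark a 2-fold change. The changes run from -0.76 to 0.88, and the ALB points of probe 2061 stay near 0 at every time.

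For ALB the brightest probe gave the tightest bound. At 16 h, the last time, ALB 2061 stood at 1.84, 1.51 and 1.69 in NCM and at 1.92, 1.42 and 1.59 in CM in experiments 1, 2 and 3. CM was higher in experiment 1 and lower in the other two, by no more than the arrays of a medium differ among themselves. The change was -0.04 ± 0.18 (SE, 3 pairs), with an interval from -0.42 to 0.35 (limma, adjusted p = 0.987). Over all times the changes of this probe lay between -0.10 and 0.11, and its mean change over the 6 times after T0 was -0.01 with an interval from -0.17 to 0.15, over 18 pairs.

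The other ALB probes gave larger and mostly negative values late in the time-course, none past the threshold. ALB 7988 at 16 h stood at 0.94, 1.48 and 2.41 in NCM and at 0.26, 1.00 and 1.57 in CM. Each CM culture was below its own partner, while the media overlapped, because the experiments lay far apart. The change was -0.67 ± 0.32 (SE, 3 pairs), with an unadjusted p of 0.049 in limma and an adjusted p of 0.942. Averaged over 3 h, 6 h and 16 h, the change of ALB 7988 was -0.39 ± 0.18 (SE, 9 pairs), lower in 9 of 9 pairs, with an adjusted p of 0.827 in limma. How many of all probes had 9 of 9 pairs of 1 sign is not given here. ALB 7627 over the same times was at -0.49 ± 0.22 (SE), lower in 7 of 9 pairs, and ALB 393 at -0.38 ± 0.20 (SE), lower in 7 of 9. ALB 11939 was at -0.14, ALB 819 at 0.04 and ALB 2061 at 0.03.

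The single change of ALB with the greatest size was that of probe 7627 at 3 h. It stood at 0.48, 2.13 and 1.78 in NCM and at 0.10, 1.24 and 0.76 in CM. CM was lower in each experiment, and the low values of experiment 1 in both media made the groups overlap. The change was -0.76 ± 0.39 (SE, 3 pairs), with an adjusted p of 1.00 in limma. Opposite to these, ALB 819 at 1 h stood at 0.92, 1.69 and 1.00 in NCM and at 1.29, 2.22 and 1.35 in CM, higher in each pair, with a change of 0.42 ± 0.20 (SE) and an adjusted p of 0.977 in limma. With the 6 probes of ALB averaged into 1 value, the mean change over 3 h, 6 h and 16 h was -0.22 ± 0.12 (SE), with an interval from -0.48 to 0.04 (limma, adjusted p = 0.827). With the change at T0 subtracted, this average was -0.16, with an interval from -0.68 to 0.35. Without experiment 1 the late value of ALB 7627 was -0.75 and that of ALB 393 was -0.66; without experiment 3 they were -0.31 and -0.15.

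AFP gave no common direction. At 16 h the brightest probe, 1703, stood at 2.89, 2.28 and 2.38 in NCM and at 2.48, 1.94 and 2.20 in CM. Each CM value was below its partner, and the 2.48 of experiment 1 was above both other NCM values. The change was -0.31 ± 0.19 (SE, 3 pairs) with an interval from -0.71 to 0.09 (limma, adjusted p = 0.942), and with the arrays only median centred it was -0.02. At the same time AFP 6311 had the opposite sign: it ran from -1.52 to -0.30 in NCM and from -0.84 to -0.21 in CM, a change of 0.50 ± 0.28 (SE), higher in 3 of 3 pairs (limma, adjusted p = 0.942). AFP 9186 was at -0.12. Averaged over its 3 probes, AFP changed by 0.02 ± 0.20 (SE) at 16 h.

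The largest change of AFP in size came at T0, the background of the time-course. AFP 9186 stood there at -0.91, -3.34 and -1.37 in NCM and at -0.36, -1.51 and -1.12 in CM. The array at -3.34 is the lowest of the probe in the whole series. The change of 0.88 ± 0.40 (SE, 3 pairs; unadjusted p = 0.039 and adjusted p = 0.973 in limma) was 0.39 without experiment 2. This T0 value is the background against which the later changes of the probe are read; with it subtracted, the value of AFP 9186 at 30 min was -1.24 (adjusted p = 0.999 in limma).

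For TTR, the brightest probe gave the smallest unadjusted p of any mean over times in the set. At 15 min TTR 11995 stood at 1.19, -0.63 and -0.46 in NCM and at 0.23, -1.04 and -0.79 in CM. Each CM culture was below its partner, and experiment 1 was above the others in both media. The change was -0.57 ± 0.22 (SE, 3 pairs), with an unadjusted p of 0.019 and an adjusted p of 1.00 in limma, and on the values as deposited it was -0.23. At 30 min the change was -0.26 and at 1 h -0.38, so that CM was lower in 9 of 9 pairs over the first hour. The mean over 15 min, 30 min and 1 h was -0.40 ± 0.13 (SE), with an interval from -0.67 to -0.13, a 1.32-fold lower level. Its unadjusted p was 0.0053 and its adjusted p 0.686 in limma, so it was not called, as no probe of the array was for this mean (0%). For the same mean 7% of all probes had an unadjusted p under 0.05. The share of all probes with 9 of 9 pairs of 1 sign is not given here. As deposited the mean was -0.22. At 3 h and 6 h the changes were 0.10 and 0.01, and at 16 h -0.30, which was 0.07 with neighbour centring.

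Of the other 5 TTR probes, 3 had the opposite sign to 11995 in the first hour, and none passed. Over the same 3 times TTR 704 was at 0.29, TTR 2628 at 0.27 and TTR 7620 at 0.36 (higher in 8 of 9 pairs), while TTR 2941 was at -0.05 and TTR 7341 at -0.23. Averaged over the 6 probes TTR was at 0.04 ± 0.10 (SE), with an interval from -0.16 to 0.24. Over 3 h, 6 h and 16 h the average was 0.00, with an interval from -0.20 to 0.21. Probes of 1 gene thus disagreed, and which transcripts or sequence each one reads is not given in the sources used here.

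Counted over all members, the means over 15 min to 1 h, over 3 h to 16 h and over all 6 times after T0 gave 0 of 45 tests past the threshold. For these means limma called 0%, 0.0434% and 0% of all probes. An unadjusted p under 0.05 was reached in 4 of the 45, against 7%, 5.98% and 5.76% of all probes. Each time minus T0 gave 0 of 90 past the threshold, with 0% of all probes called at each of the 6 times. At an unadjusted p under 0.05 there were 2 of the 90, against 2.79% to 4.62% of all probes at each time. An F test over the 6 times after T0 called 0 of the 15 and 0% of all probes. At an unadjusted p under 0.05 there were 0 of the 15, against 2.99% of all probes.

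Levels of 3 probes differed between the experiments, a comparison that was made after the values had been seen. Pair means, averaging both media within a pair, were compared over experiments 1, 2 and 3 with the time as a term. ALB 7627, ALB 7988 and TTR 11995 passed (limma, adjusted p of 0.042, 0.044 and 0.034), which is 3 of 15, and 2.22% of all probes passed. Of all probes, 25.9% had an unadjusted p under 0.05 in this test, so differences between experiments were widespread on the array. ALB 7627 stood at 0.39 ± 0.77 (SD over 7 times) in experiment 1, 1.52 ± 0.33 in experiment 2 and 1.58 ± 0.28 in experiment 3. ALB 7988 stood at 0.65, 1.49 and 1.64, and TTR 11995 at 0.29, -0.57 and -0.56. Of the probes that passed, ALB 7627 and ALB 7988 were thus low, and TTR 11995 high, in experiment 1.

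This pattern was not there at T0 for ALB. At T0 the pair means of ALB 7627 were 1.84, 1.66 and 1.37 in experiments 1, 2 and 3, and those of ALB 7988 were 1.79, 1.96 and 1.34; at each of the 6 later times experiment 1 was the lowest for both. TTR 11995 was highest in experiment 1 at 7 of 7 times. ALB 393 (1.15, 1.75 and 1.94) and ALB 11939 (0.41, 1.03 and 1.14) had the same order without passing. Low levels in experiment 1 were not limited to ALB. AFP 6311 (-0.94, -0.46 and -0.34) had that order, and TTR 7620 (-1.81, -1.11 and -1.19) was also lowest there. So were ALB 819, AFP 9186 and TTR 704, 2628 and 7341, none of them passing. ALB 2061 (1.79, 1.68 and 1.59), AFP 1703 (2.40, 2.21 and 2.17) and TTR 2941 (-0.45, -0.63 and -0.65) had the opposite order. The labels do not say that an experiment number stands for 1 batch of cells at different times. The medians of the deposited values were 0.425 to 0.731 in experiment 1, 0.357 to 0.807 in experiment 2 and 0.354 to 0.562 in experiment 3, and the part of array quality in these levels was not tested. With arrays only median centred 0 of the 15 passed and no probe of the array did. With neighbour centring 0 passed, against 0.21% of all probes. Without experiment 1 or without experiment 3 0 passed, and the share of all probes is not given for these. On the values as deposited 4 passed (ALB 393 added, 5.95% of all probes), and without T0 7 passed against 24.8% of all probes. Experiment 1 minus the mean of the others was still -1.39 for ALB 7627 with median centring and -0.83 with neighbour centring. For TTR 11995 it was 0.54 and 0.57. The order of some other probes depended on the scaling. With median centring the difference was -0.19 for ALB 2061 and -0.11 for AFP 1703, but 0.09 for TTR 2941. With neighbour centring it was 0.02 for ALB 2061, -0.12 for AFP 1703 and 0.03 for TTR 2941. It was then 0.13 for AFP 9186 and 0.27 for TTR 7341.

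The change in CM was also compared between experiments. ALB 393 averaged 0.33 in experiment 1, -0.46 in experiment 2 and -0.61 in experiment 3 over the 7 times, with an unadjusted p of 0.0015 and an adjusted p of 0.856 in limma. No member and 0% of all probes passed this test. At an unadjusted p under 0.05 there were 3 of the 15, against 5.35% of all probes.

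Probes of 1 gene were set side by side to see how far they read the same quantity. Over the 42 arrays, which share their pairs of cultures and their experiments, the levels of ALB 393, 7627, 7988 and 11939 correlated with each other at Pearson's r of 0.72 to 0.87 (Spearman's rho of 0.68 to 0.86) over their 6 pairings, and at 0.64 to 0.88 without the 2 arrays farthest from the median. For all 3221 same-gene probe pairs of the array, from 1128 genes, the median r was 0.09, and 5.68% were above 0.7. The 4 were grouped for this likeness, so it is a description. With time and experiment taken out of the pair means, r was 0.58 to 0.88, and for the CM minus NCM values of the 21 pairs it was 0.29 to 0.75. After neighbour centring, which takes the probe numbers as places on the array (the files do not state the layout) and subtracts the mean deviation of the adjoining probes, r was 0.66 to 0.75.

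The other members' relation to these 4 probes depended on the scaling. Against the 4, ALB 2061 had r of -0.39 to -0.23, but -0.11 to 0.25 after neighbour centring. ALB 819 had r of -0.04 to 0.13, but 0.26 to 0.54 after it. ALB 2061 ran with AFP 1703, the brightest AFP probe, at r = 0.73 (rho = 0.73, and 0.68 without the 2 farthest arrays), which was 0.15 after neighbour centring. The r of ALB 2061 with the mean of its run of 384 consecutive probe numbers, members left out, was 0.58, and that of AFP 1703 was 0.40. Those of ALB 393, 7627, 7988 and 11939 were -0.08, 0.29, -0.36 and -0.05. TTR 704 at 0.46 and TTR 2941 at 0.40 had values like that of AFP 1703. What place on the array does to these levels was not tested. AFP 6311 had r of 0.50 to 0.57 with the 4 ALB probes and AFP 1703 had r of -0.49 to -0.40, but neighbour centring ended this contrast, with 0.03 to 0.29 for AFP 6311 and 0.17 to 0.39 for AFP 1703. The 3 AFP probes had r of -0.37 to 0.00 among themselves, and the 6 TTR probes -0.46 to 0.50.

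**Figure D4:**
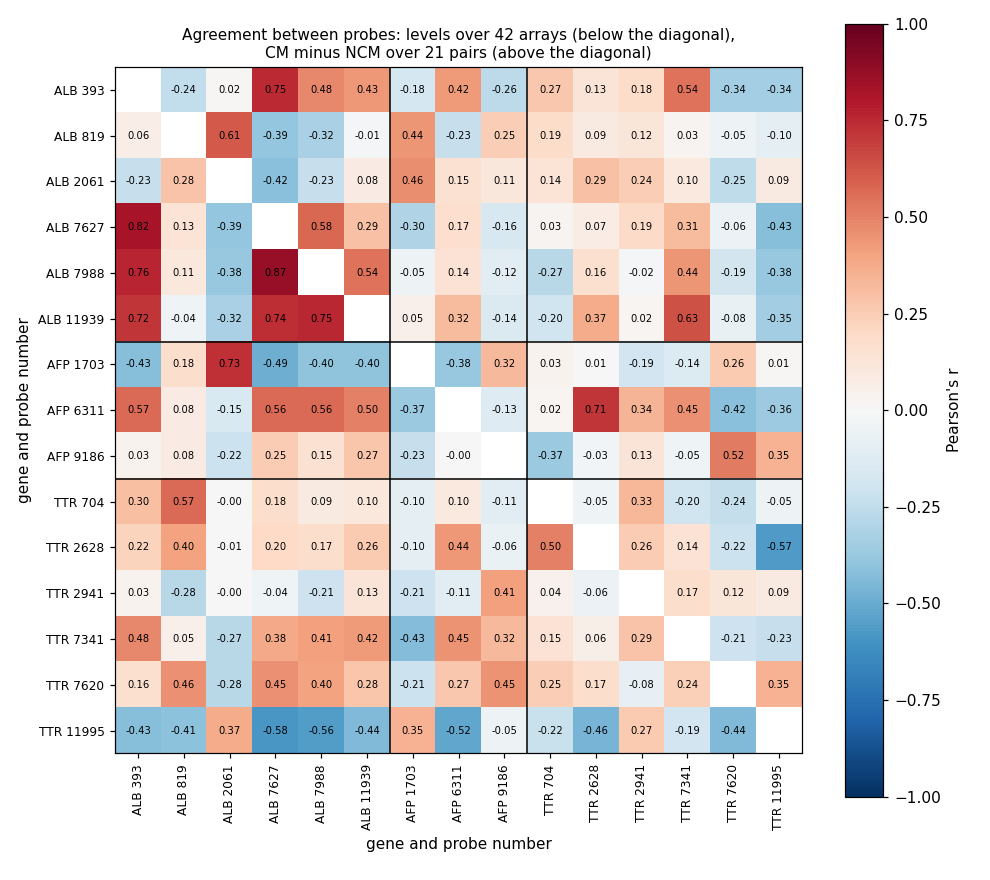
Pearson's r between all pairs of the 15 probes (rows and columns, by gene and probe number), for levels over 42 arrays below the diagonal and for CM minus NCM over 21 pairs above it; red is positive and blue negative. The pairs among ALB 393, 7627, 7988 and 11939 are at 0.72 to 0.87 below the diagonal, and ALB 2061 with AFP 1703 is at 0.73.

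Genes whose 14 group means ran most like those of the brightest probe of each member were looked up over all probes that name 1 other gene. For ALB 2061 these were ACO1, the cytosolic aconitase that also binds iron-responsive elements (r = 0.93), PAXIP1-DT (0.90) and the transporter ABCC5 (0.89). Over the 42 single arrays the same 3 had r of 0.05, -0.16 and 0.34, so the likeness of the means was not carried by the arrays. For AFP 1703 they were the galactosyltransferase B4GALT1 (0.88), the microtubule-binding EML4 (0.87) and CPS1, the first enzyme of the urea cycle (0.85), with r of 0.70, 0.56 and 0.61 over the arrays. For TTR 11995 they were the glucose transporter SLC2A1 (0.89), the complement factor CFI (0.86) and TATDN1 (0.86), with r of 0.65, 0.60 and 0.56.

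The partners of the 3 genes were taken from lists, with 1 probe per gene. Of the albumin gene family 3 of 4 genes were measured, and none passed limma's test at any time, with 0 of 21 tests at an unadjusted p under 0.05. Afamin (AFM), a vitamin E carrier and the next gene after AFP on chromosome 4, changed by -0.21 to 0.27 over the 7 times. Of 8 thyroid hormone and retinol carriers 3 were measured, with none past the threshold and 1 of 21 tests (TTR at 15 min) at an unadjusted p under 0.05. Thyroxine-binding globulin (SERPINA7) lay between -0.17 and 0.15. Retinol-binding protein (RBP4), which travels in plasma bound to transthyretin, had 3 probes that disagreed at 6 h, with 0.89 for probe 1708, 0.25 for 7991 and -0.18 for 8660. The first had an unadjusted p of 0.049 and an adjusted p of 0.999 in limma.

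Of 20 negative acute phase genes 18 were measured, ALB, AFP and TTR among them, and limma called 0 higher and 0 lower at any of the 7 times. An unadjusted p under 0.05 was reached in 5 of their 126 tests, against 4.09% of the tests of all genes. Over 3 h to 16 h their median was -0.07, with 7 above and 11 below 0, against a median of 0.00 and 50.4% above 0 for all 5631 genes. Their values ran from -0.32 for APOA1, the main protein of high-density lipoprotein, to 0.41 for FETUB. Of 24 regulators of the 3 genes 9 were measured, and none passed either, with 6 of 63 tests at an unadjusted p under 0.05. Over the 7 times their values ran from -1.07 for FOXA1 at 3 h to 1.14 for CEBPD at 1 h, both transcription factors of liver genes, and the smallest unadjusted p of the list was 0.000997, at 1 h.

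The gene already known from these data to pass at 16 h, complement factor B, a protease precursor that liver cells make more of in inflammation, was read beside the members on the same arrays. Its probe 2983 rose by 1.47 ± 0.22 (SE, 3 pairs; adjusted p = 0.018 in limma), while its other 2 probes were at 0.47 and 0.30. The call was lost when any 1 of the 3 experiments was left out, without the pair block, on the values as deposited and with median centring. It was the 1 of 16 measured acute phase genes that rise which passed at 16 h, in a list with a median of 0.20 against 0.02 for all genes. Beside it, the brightest probe of ALB was at -0.04, that of AFP at -0.31 and that of TTR at -0.30 in the same arrays. Their intervals all included 0. The brightest probe does not stand for all probes of its gene. At 16 h the 6 ALB probes ran from -0.67 to 0.05, with 5 below 0, 1 above and a median of -0.16. Averaged over its probes, ALB was at -0.21 (interval from -0.65 to 0.24), AFP at 0.02 and TTR at 0.06.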

How the data were processed

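The authors deposited 1 table of linear intensities, 1 value per probe and array, scaled to a mean near 1 and slightly negative for at most 2.12% of probes; array type, scanner and scaling have no source here, and the precision rests on how many arrays there are. Arrays were quantile normalized, floored at the 1st percentile they then share (0.0812) and put on the log2 scale. limma 3.58.1 in R 4.3.3 fitted all 42 arrays with a term for each pair and a CM effect for each time (14 residual and 6.26 prior degrees of freedom). Tests were two-sided, Benjamini-Hochberg adjusted over 13824 probes, threshold 0.05. Each medium over time was fitted on its 21 arrays without a block. The pairs come from the labels, and deviations of paired arrays correlated at 0.308 to 0.754 in 21 of 21 pairs. P-values of CM against NCM measure the spread of the change between the 3 pairs of a time, pooled over the 7 times. Those over time in 1 medium measure the spread between the 3 arrays of a time. Those between experiments measure the spread of pair values left after time and experiment. Means over 9 or 18 pairs take pairs of different times as independent.

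Of the probes, 7336 name 1 gene, 576 several and 5912 none; all 15 member probes matched RefSeq symbols. Named were all member probes, called list genes, the albumin family and carriers, the 3 genes most like each brightest probe, and CFB; list genes at the ends of a range were named after their values were seen. The 13 lists, the members and the early and late means were chosen with earlier results of these data known. Early and late mean 15 min to 1 h and 3 h to 16 h. The fits were tested on simulated data. Plots used matplotlib 3.10.9.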

Additional observations from a re-analysis of the deposited data

How the results depend on the processing

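No test of CM against NCM on ALB, AFP or TTR passed the threshold under any setting run for it. These were no replicate block, values as deposited, median centring, a floor at the 10th percentile, and leaving out the dimmest 25% of probes. That filter left 13 of 15, without AFP 9186 and TTR 2628. Further settings were an intensity trend, neighbour centring, probes of a gene averaged, each time alone, and leaving out replicate 1, 2 or 3. The experiment number as a replicate block was run only for the tests over time in 1 medium. With it, 0 of these member tests had an unadjusted p under 0.05 in limma. Among changes at single times and means over times, the smallest adjusted p was 0.260 in limma, without replicate 1. In the main fit, the counts at an unadjusted p under 0.05 were 3 of 105 at single times, 4 of 45 for means over times and 2 of 90 against T0. For the tests over time in 1 medium the count was 0 of 30. The matching shares of all probes are given with the results above. Of 150 probe-wise values, none of them called, 62 kept their sign in every setting, 88 changed it in at least 1, and 25 moved by more than the spread between pairs. The number of member probes that differed between experiments was 3, against 2.22% of all probes. It was 4 as deposited (5.95% of all probes), 4 with the intensity trend (2.64%) and 3 without the dimmest probes (1.6%). It was 0 with median centring (0%), 1 with the higher floor (0.434%) and 0 with neighbour centring (0.21%). With probes of a gene averaged it was 0 (1.25%), and without T0 it was 7 (24.8%). Without 1 replicate it was 0 to 3, and the share of all probes is not given for that. The cause was not tested. For that comparison all settings were chosen after seeing the data. Over all probes, the 1 call at 16 h was 0 to 5 and the 6 calls of the late mean 0 to 10 over the settings.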
